A study of Mus musculus with 18 samples.

Results

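E9.5 mouse embryos homozygous for the HoxB mutation Del(i9-13) were compared with wild-type littermates, both without the head. The comparison took the 6 libraries that the labels place in these groups, 3 per genotype, of 18 in the series. The remaining 12 libraries came from E10.5 headless embryos, 3 each of wild type and of homozygous Del(i9-13), Hoxb13hd and the combined Del(i9-13):Hoxb13hd. They share no library with the E9.5 comparison and were used below to follow the E9.5 calls to the later stage. Del(i9-13) was read as a deletion between Hoxb9 and Hoxb13, and the series title names CTCF-dependent insulation of Hoxb13 and tail length as the subject. The labels do not explain hd, nor whether a replicate is 1 embryo or a pool. The p-values set group differences against the spread of these libraries, and whether that is spread between single embryos is not known. RNA was purified with a column kit, and stranded libraries were made after poly(A) selection at E9.5 and after ribosomal RNA depletion at E10.5, per the labels' protocols, so stage and library type cannot be told apart.

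Hox genes of the 4 clusters give cells of the trunk and tail their position along the body axis, and the genes at the 5′ end of each cluster are switched on last and furthest back. Hoxb13 is the most 5′ gene of HoxB and stands apart from Hoxb9, and in mice its product acts late, to end the growth of the tail bud. Sterol and fatty acid synthesis is carried out in nearly every dividing cell of the embryo. The SREBP transcription factors (Srebf2 for sterols, Srebf1 for fatty acids) are released when membrane sterol is low and switch on the enzymes of cholesterol synthesis as a set.

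The 6 libraries held 29829820 to 35934843 counts each. Several defining markers of the forebrain and midbrain, which the headless label leaves out, were at or near 0. Otx2 had 1 count over the wild type libraries and 7 over Del(i9-13). Of 14 forebrain and midbrain genes, 7 passed the filter on low counts. The 14 summed to 28.2, 25.2 and 27.3 CPM (counts scaled to a fixed library total with TMM factors) in wild type. In Del(i9-13) they summed to 22.8, 18.6 and 15.5 CPM, which do not overlap with wild type. Values were negative for 7 of the 7 tested, beside 49.5% of all genes, and 0 were called. The genes that passed were Lhx2 and En1, which are also expressed in limb buds, and Hesx1, Emx1, Emx2, Pax5 and En2. Primitive red cells were present in all libraries at a similar level, with Hba-x, an embryonic globin gene, between 1838 and 2021 CPM. Xist was at 1474 and 1556 CPM in wild type libraries 2 and 3 and at 1.01 to 1.26 CPM in the other 4, which carried Y-linked transcripts at 149 to 171 CPM. The sex of the tissue therefore differed within the wild type group and not within Del(i9-13).

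Hoxb13 (chromosome 11, 96194316 to 96197447, plus strand, mm10) was close to absent from wild type and clearly expressed in all 3 mutant libraries. It measured 0.112, 0.0335 and 0.133 CPM in wild type, from 4, 1 and 4 counts, and 37.7, 43.1 and 45.0 CPM in Del(i9-13). The groups did not overlap. The log2 difference was 8.74 (SE 0.21, adjusted p = 3.53e-07 in edgeR's quasi-likelihood test), and the ratio of summed counts was 445 (95% exact interval 234 to 974, counting error only). On log2(CPM + 0.1) the difference was 7.81, with an exact two-sided permutation p of 0.1, the smallest that 3 against 3 can give. Gm53, a long noncoding RNA that lies between Hoxb13 and Hoxb9 (96251105 to 96264868), had 472, 827 and 860 counts in wild type and 0, 3 and 0 in Del(i9-13). The ratio of summed counts, wild type over Del(i9-13), was 723 (exact interval 247 to 3507; adjusted p = 0.0162). Its wild type level itself was uneven, with 13.2 CPM in library 1 against 27.7 and 28.5 in the others. Hoxb9 (96271457 to 96276595), the next gene on the far side, fell from 249, 265 and 227 CPM to 184, 189 and 177 CPM (log2 −0.43, SE 0.06, adjusted p = 0.0336). The Hoxb9 call held without wild type replicate 3 and was lost without any other library (adjusted p = 0.0619 to 0.122). Gm53 was no longer called when 1 mutant library, whichever it was, was left out (adjusted p = 0.0726 to 0.246). It lies in the interval where Del(i9-13) was read as a deletion, and whether its sequence remains in the mutant was not tested.

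**Figure D1:**
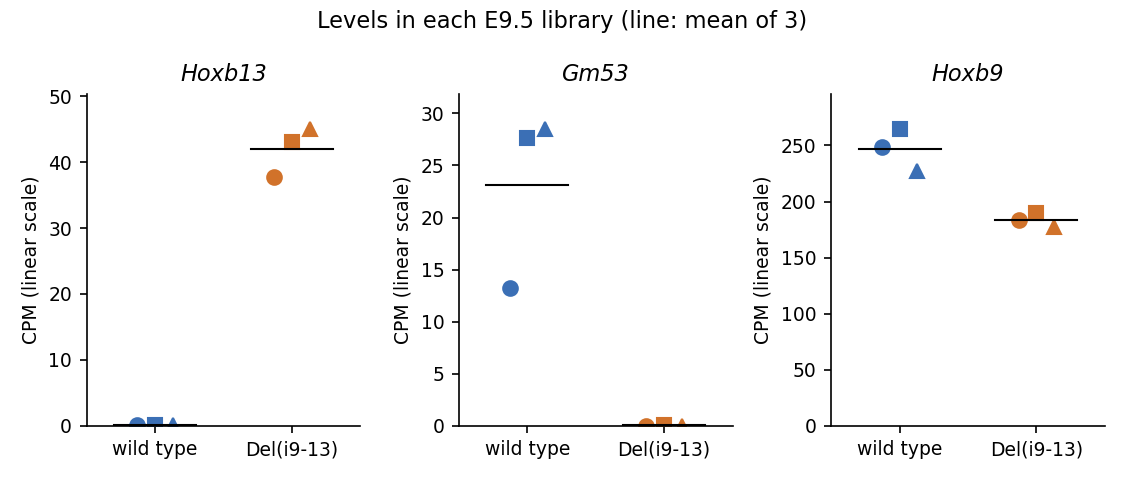
CPM of Hoxb13, Gm53 and Hoxb9 in each of the 6 E9.5 libraries, on linear axes that start at 0; points are libraries and black lines the means of 3. Hoxb13 sits at 37.7 to 45.0 CPM in Del(i9-13) and below 1 CPM in wild type, Gm53 shows the reverse, and Hoxb9 is lower in every Del(i9-13) library.

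None of the other 10 HoxB genes tested passed. These were Hoxb1 to Hoxb8 and the antisense transcripts Hoxb3os and Hoxb5os, with log2 differences from −0.24 (Hoxb7, adjusted p = 0.392) to 0.28 (Hoxb5os, adjusted p = 0.137). The group 13 genes of the other clusters did not pass either. Hoxd13 was at 9.22, 16.8 and 12.6 CPM in wild type and 14.6, 12.8 and 10.9 CPM in Del(i9-13), which overlap. Hoxa13 was at 3.95, 4.92 and 4.24 against 3.74, 3.39 and 3.46 CPM (log2 −0.31, adjusted p = 0.498), and Hoxc13 stayed between 0.280 and 1.04 CPM in all 6. Over the 15 tested genes of Hox groups 9 to 13 outside HoxB, 14 were below 0, beside 49.5% of all genes, and 0 passed. The median log2 was −0.25 beside 0.0018 over all genes. Relative to the mean of the 6 libraries, the list median was −0.25, 0.41 and 0.18 in wild type 1, 2 and 3. In Del(i9-13) 1, 2 and 3 it was −0.03, −0.04 and −0.23, so wild type 1 lay below every mutant library. Hoxa11 was at 14.7, 22.5 and 17.5 CPM in wild type and at 10.8, 11.2 and 10.7 CPM in Del(i9-13). Its antisense partner Hoxa11os ran the other way, at 4.32, 8.13 and 6.20 against 13.8, 11.4 and 11.0 CPM. The labels do not give the strand setting of the counting, so reads of this pair may be shared. With Xist as a covariate the median of the Hox list was 0.06. Xist was high in wild type 2 and 3 alone, so that fit set mainly wild type 1 against Del(i9-13). Wild type 1 was also low in tail bud genes (list median −0.67). The parts of sex and of the tissue in wild type 1 in the negative values were not tested.

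Across the genome the difference was small in number and in size. Of 16041 genes tested, 58 were called at an adjusted p of 0.05 (0.362% of genes), 15 higher (0.0935%) and 43 lower (0.268%) in Del(i9-13). The median absolute log2 of the 58 was 0.69, and 40 of them differed by less than 1 on the log2 scale. By gene type, 47 calls were protein coding (0.334% of 14061 tested) and 4 long intergenic noncoding RNAs (1.13% of 355). The 6 pseudogenes were 4 processed (1.05% of 380), 1 transcribed processed (1.92% of 52) and 1 unprocessed (3.23% of 31). The remaining call was a processed transcript (0.444% of 225). Chromosome 9 held 8 calls (0.872% of 917 tested), chromosome 11 held 7 (0.552% of 1267) and chromosome 19 held 6 (1.14% of 527). Chromosomes 12, 16, 17 and 18, with 611, 491, 768 and 434 genes tested, held none. At an unadjusted p under 0.05 there were 1876 genes (11.7%), 864 higher and 1012 lower. The libraries of the groups did not overlap for 3031 genes (18.9%).

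**Figure D2:**
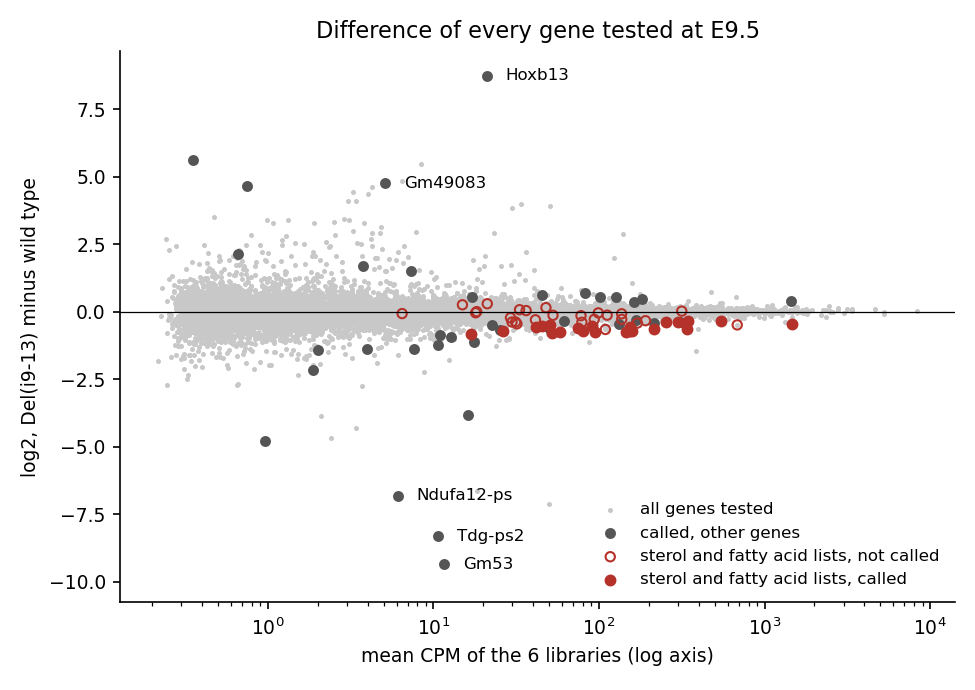
Each of the 16041 genes tested, with its mean CPM over the 6 libraries on a log axis and its log2 difference, Del(i9-13) minus wild type. Filled points are the 58 calls; the 22 called sterol and fatty acid genes form a band between −0.80 and −0.33 at middle to high levels, whereas Hoxb13, Gm53 and a few pseudogenes hold the extremes.

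Sterol and fatty acid synthesis made up 51.2% of the lower calls. Of 48 genes on 4 lists (mevalonate enzymes, squalene to cholesterol enzymes, sterol sensing and uptake, fatty acid synthesis), all 48 were tested, 22 were called lower and 0 higher. Negative values were found for 41 of 48, with a median log2 of −0.38, beside 49.5% of all genes and a median of 0.0018. The called members were 20.5% to 42.7% below wild type. Groups did not overlap for 34 of the 48, 32 lower and 2 higher, beside 9.83% of all genes lower and 9.06% higher. The lists were drawn up knowing that sterol genes had been called in these libraries, so their counts describe the lists and are not independent evidence of a direction.

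SREBP binds sterol response elements in promoters together with the factor NF-Y. RefSeq promoter windows were matched by symbol for 34 of the 48 genes and for 14 of the 22 called (300 bases, from 250 before to 50 after the start, GRCm38.p6, the mm10 assembly). A match to the sterol response element written TCACNCCAC, on either strand, stood in 1 of the 16 windows of called genes, that of Hmgcs1. It stood in 0 of the 28 windows of list members not called and in 1.24% of all 32851 windows. The CCAAT box (CCAAT on either strand, read as ATTGG on the other) is the core of the NF-Y site. It stood in 13 of the 16 windows of called genes (81.25%). It also stood in 15 of the 28 windows of list members not called (53.57%) and in 37.4% of all windows. Counted by gene, 13 of the 14 called and 14 of the 20 not called had it in at least 1 window. Capitals in the stretches printed here mark separate matches that do not overlap. The 250 bases before the start are printed for Hmgcs1, which holds both motifs, and for the 3 called genes of smallest p with a CCAAT box, to show where the matches lie. They come from chr13:119690101-119690350 (plus strand, Hmgcs1), chrX:72918271-72918520 (plus strand, Nsdhl), chr5:4104698-4104947 (minus strand, Cyp51), chr10:76531355-76531604 (plus strand, Lss). Each runs 5′ to 3′ along its gene, with matches to either motif in capitals.
Hmgcs1: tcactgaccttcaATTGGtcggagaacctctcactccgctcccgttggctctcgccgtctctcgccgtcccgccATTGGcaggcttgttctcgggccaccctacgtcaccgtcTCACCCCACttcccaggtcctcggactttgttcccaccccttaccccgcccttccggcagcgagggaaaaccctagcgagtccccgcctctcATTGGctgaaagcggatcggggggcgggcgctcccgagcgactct
Nsdhl: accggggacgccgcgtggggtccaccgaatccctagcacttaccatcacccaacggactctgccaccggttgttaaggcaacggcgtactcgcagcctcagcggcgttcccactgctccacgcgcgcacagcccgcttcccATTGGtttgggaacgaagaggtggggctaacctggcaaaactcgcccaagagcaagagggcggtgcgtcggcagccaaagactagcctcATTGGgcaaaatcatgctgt
Cyp51: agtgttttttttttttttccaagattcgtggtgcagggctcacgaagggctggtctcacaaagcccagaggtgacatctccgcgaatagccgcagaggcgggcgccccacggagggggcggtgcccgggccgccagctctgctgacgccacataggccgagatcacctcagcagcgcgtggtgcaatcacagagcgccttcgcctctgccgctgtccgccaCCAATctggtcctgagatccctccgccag
Lss: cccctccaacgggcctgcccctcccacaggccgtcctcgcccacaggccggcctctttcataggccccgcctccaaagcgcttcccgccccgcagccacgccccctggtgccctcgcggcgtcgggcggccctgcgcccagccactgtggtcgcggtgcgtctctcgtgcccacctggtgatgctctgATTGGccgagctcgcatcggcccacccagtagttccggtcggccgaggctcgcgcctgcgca
Hmgcs1 carries the sterol response element once and the CCAAT box 3 times in this stretch, Nsdhl the CCAAT box in 2 places, and Cyp51 and Lss in 1 each. A match is a run of letters and was not measured as a bound site in these libraries.

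The mevalonate pathway builds the isoprene units from which sterols are made. Hmgcs1, which joins acetyl groups into HMG-CoA, was at 456, 413 and 364 CPM in wild type and at 283, 271 and 241 CPM in the mutant (log2 −0.63, SE 0.09, adjusted p = 0.0337). Every Del(i9-13) library lay below every wild type library. Mvd, which makes isopentenyl diphosphate, fell from 57.1, 52.2 and 52.0 to 36.5, 38.8 and 35.7 CPM (log2 −0.54, adjusted p = 0.0106). Idi1, which isomerises it, fell from 37.3, 30.6 and 30.2 to 21.9, 20.1 and 18.5 CPM (log2 −0.70, adjusted p = 0.0337). Fdps, which makes farnesyl diphosphate, the last intermediate shared with protein prenylation, fell from 211, 199 and 183 to 119.8, 127 and 116 CPM (log2 −0.71, SE 0.07, adjusted p = 0.00365). So 5 of 9 members were called lower. The kinases Mvk (log2 −0.29, adjusted p = 0.192) and Pmvk (log2 −0.38, adjusted p = 0.0757) and the thiolase Acat2 (log2 −0.28, adjusted p = 0.222) did not pass, although no library of theirs overlapped between groups. Ggps1, which leads away from sterols into geranylgeranylation, was the single member with a positive value (log2 0.16, adjusted p = 0.396), at 46.1, 46.6 and 43.1 against 53.2, 50.2 and 47.8 CPM. The median of the list was −0.54.

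From squalene to cholesterol, 10 of 12 enzymes were called lower, with a median log2 of −0.57. Fdft1 and Sqle, which make squalene and oxidise it, stood at 112, 104 and 105 and at 199.9, 175 and 174 CPM in wild type. In Del(i9-13) they stood at 74.7, 78.0 and 72.7 and at 132, 122 and 121 CPM (log2 −0.51 and −0.55, adjusted p = 0.00604 and 0.014). Lss, which closes the sterol rings, fell from 107, 97.5 and 92.9 to 62.0, 59.7 and 58.0 CPM (log2 −0.73, adjusted p = 0.0033). Cyp51, the lanosterol demethylase, fell from 201, 189.9 and 184 to 124, 113 and 115 CPM (log2 −0.71, adjusted p = 0.00247). These libraries fell into separate ranges by genotype. Tm7sf2, a sterol reductase that acts on the product of Cyp51, was at 20.9, 20.9 and 22.2 CPM in wild type and at 11.1, 13.3 and 12.3 CPM in the mutant (log2 −0.80, SE 0.09, adjusted p = 0.00964). The steps after it remove the methyl groups at carbon 4. Msmo1 acts there and was at 129, 113 and 114 against 72.5, 73.4 and 66.4 CPM (log2 −0.75, adjusted p = 0.00365). Nsdhl, an X-linked enzyme of the same complex, was at 71.8, 73.0 and 73.9 against 44.3, 43.9 and 43.1 CPM (log2 −0.74, SE 0.05, adjusted p = 0.000883). Wild type library 1, with Y-linked transcripts, and libraries 2 and 3, with Xist, had nearly the same Nsdhl level.

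Enzymes that finish the molecule were called lower as well. Sc5d, the desaturase, was at 60.9, 54.9 and 61.6 CPM in wild type against 41.7, 41.7 and 43.9 CPM (log2 −0.48, adjusted p = 0.0177). Dhcr7, mutated in human Smith-Lemli-Opitz syndrome, was at 95.5, 88.4 and 85.6 against 62.8, 57.1 and 59.1 CPM (log2 −0.59, adjusted p = 0.00586). Hsd17b7 did not pass (log2 −0.38, adjusted p = 0.0881), and Ebp, the sterol isomerase, was level, at 18.3, 19.2 and 17.1 against 18.2, 17.5 and 19.3 CPM. On a scale corrected for transcript length, the mean wild type levels of the 22 called genes ran from 12.7 FPKM for Tm7sf2 to 264 FPKM for Scd2.

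**Figure D3:**
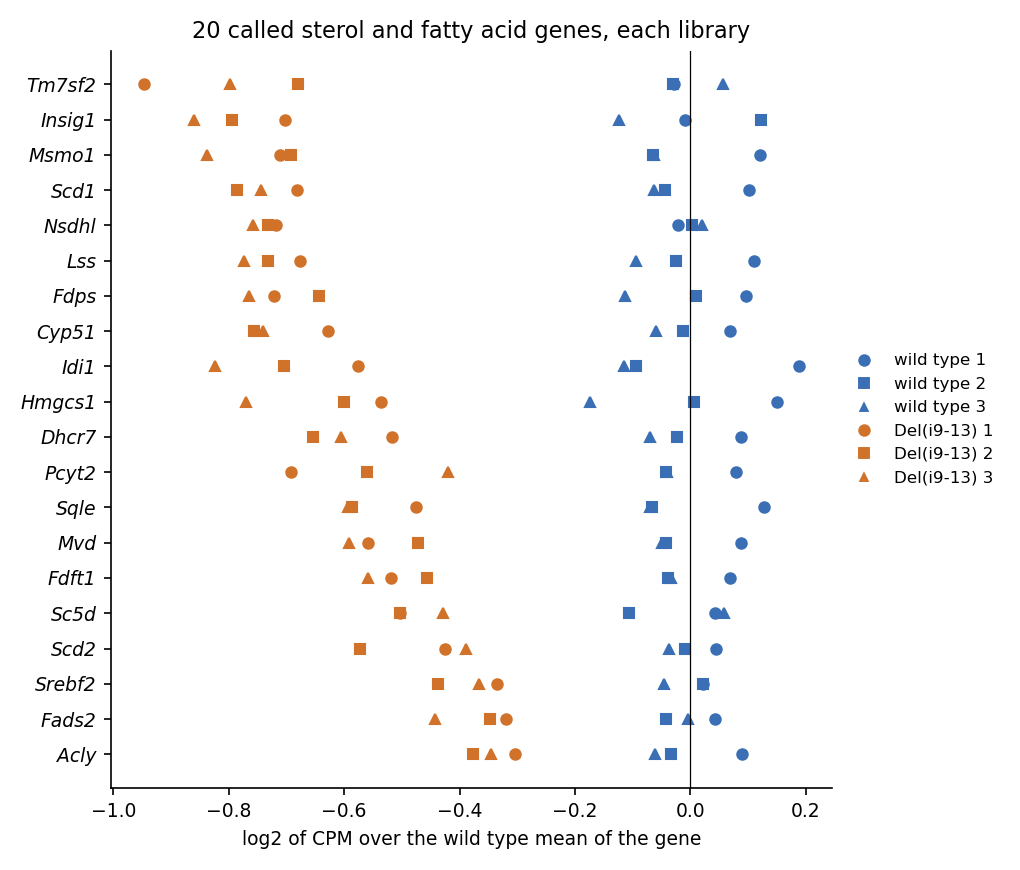
Of the 22 called sterol and fatty acid genes, 20 in each library, as log2 of the CPM over the gene's wild type mean; blue points are the 3 wild type and orange the 3 Del(i9-13) libraries. For every gene the 3 Del(i9-13) points lie left of the 3 wild type points, with the smallest difference for Acly (−0.34) and the largest for Tm7sf2 (−0.80).

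Among genes that sense and import sterol, 2 of 14 were called lower and the median log2 was −0.14. Insig1, which holds SREBP back in the membrane and is itself switched on by it, was at 65.7, 72.1 and 60.8 CPM in wild type and 40.7, 38.2 and 36.5 CPM in the mutant (log2 −0.78, SE 0.08, adjusted p = 0.00424). Srebf2, the sterol SREBP, was at 342, 342 and 326 against 267, 249 and 261 CPM (log2 −0.38, SE 0.05, adjusted p = 0.0209). Srebf1 was at 82.6, 79.9 and 82.6 against 75.4, 66.0 and 80.6 CPM, which overlap (log2 −0.14, adjusted p = 0.489). The sterol carrier Stard4 did not pass (log2 −0.39, adjusted p = 0.233). Mylip, a ubiquitin ligase gene and a target of the oxysterol receptors LXR, had the most positive value (log2 0.30, adjusted p = 0.288). Scap, Mbtps1, Mbtps2, Insig2, Scarb1, Npc1 and Npc2, overlapped between the groups. Of 7 genes of sterol efflux and other LXR targets, 0 passed, 5 had positive values, and the median log2 was 0.03.

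In fatty acid synthesis 5 of 13 were called lower, with a median log2 of −0.34. Scd1 and Scd2 put the first double bond into saturated chains. Scd1 was at 194, 175 and 173 CPM in wild type and at 113, 105 and 108 CPM in the mutant (log2 −0.74, SE 0.06, adjusted p = 0.00247). Scd2, the more abundant of the pair, was at 1753, 1689 and 1658 against 1266, 1143 and 1298 CPM (log2 −0.46, adjusted p = 0.0145). Fads2, a desaturase of polyunsaturated chains, fell from 295, 278 and 285 to 229, 225 and 210.4 CPM (log2 −0.37, adjusted p = 0.0275). Acly, which supplies acetyl-CoA from citrate, fell from 648, 595 and 584 to 493, 469 and 479 CPM (log2 −0.34, adjusted p = 0.0472). Pcyt2, which makes the head group donor of phosphatidylethanolamine, fell from 52.0, 47.8 and 47.8 to 30.4, 33.4 and 36.8 CPM (log2 −0.55, adjusted p = 0.0272). Elovl6 (log2 −0.42, adjusted p = 0.0538) and Fads1 (log2 −0.33, adjusted p = 0.109) missed the threshold with no overlap. Fasn, the fatty acid synthase, did not pass and varied within groups, at 852, 842 and 698 against 601, 433 and 676 CPM (log2 −0.48, SE 0.18, adjusted p = 0.41). Elovl5, Elovl1, Me1, Acaca and Acss2 overlapped between the groups.

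Other calls lay next to these pathways by function and were on none of the 4 lists. Aacs, which turns acetoacetate into acetoacetyl-CoA for lipid synthesis, fell from 62.5, 59.4 and 59.2 to 39.0, 41.6 and 38.1 CPM (log2 −0.61, SE 0.06, adjusted p = 0.00412). Idh1, a cytosolic source of NADPH, fell from 155, 155 and 148 to 113, 117 and 103 CPM (log2 −0.46, adjusted p = 0.0177). Tecr, a reductase of long chain elongation, was lower with a log2 of −0.32 (adjusted p = 0.0384). Their place beside the lists was noticed after their values were seen.

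These calls depended on which libraries and covariates entered. Of the 22 genes, 11 were called in each of the 6 fits without a library, and for the other 11 the largest adjusted p without a library was 0.267. Without wild type replicate 1, wild type replicate 2 or Del(i9-13) replicate 1, 13 genes of the 48 were called lower. As a covariate, either the visceral endoderm list or the neuron list left 0 of the 48 called, and under both 43 of 48 were negative with a median log2 of −0.38. With the heart muscle list as a covariate 10 of the 48 were called.

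The remaining lower calls included genes of several kinds. Rprm, a mediator of cell cycle arrest, was at 14.4, 14.2 and 16.3 CPM in wild type and at 6.56, 7.17 and 5.58 CPM in the mutant (log2 −1.22, SE 0.12, adjusted p = 0.00514). It was the sole call among 17 p53 targets and growth arrest genes, whose median log2 was −0.07. Scoc, a Golgi coiled-coil protein gene, was at 26.5, 25.0 and 20.4 against 10.8, 10.6 and 11.5 CPM (log2 −1.13, adjusted p = 0.00496). Rhbdl3, of the rhomboid family, was at 16.8, 17.97 and 15.7 against 8.91, 9.46 and 7.96 CPM (log2 −0.94, adjusted p = 0.00718). Zfp949, a zinc finger gene, was at 14.9, 14.3 and 13.2 against 7.57, 7.97 and 8.05 CPM (log2 −0.84, adjusted p = 0.00931). The sizes for Scoc and Zfp949 depended on the measure. Their mean FPKM fell less, from 14.9 to 10.3 for Scoc and from 3.82 to 2.82 for Zfp949. The neuronal genes Cntn2, an axonal adhesion protein, and Bcl11a, a transcriptional repressor, were lower too. Cntn2 was at 9.98, 14.0 and 8.95 against 4.99, 3.42 and 4.28 CPM (log2 −1.37, adjusted p = 0.0335). Bcl11a was at 3.22, 2.95 and 2.58 against 1.25, 1.13 and 0.919 CPM (log2 −1.41, adjusted p = 0.035). The chaperone Hsph1, the mitochondrial enzyme Gcdh, the arrestin domain gene Arrdc4 and Frmd4b completed the named lower calls, at log2 −0.38, −0.66, −0.49 and −0.35.

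Higher calls with a gene name of their own were 11, Hoxb13 among them. Ide, the insulin-degrading enzyme, was at 103, 106 and 101 CPM in wild type and at 149, 146 and 153 CPM in the mutant (log2 0.54, SE 0.05, adjusted p = 0.00365). Arl5a, a Golgi GTPase, was at 81.0, 89.4 and 77.1 against 124, 121 and 117 CPM (log2 0.54, adjusted p = 0.00964). Both ranges were separate and narrow. Tma7 was at 35.1, 34.8 and 35.9 against 50.03, 56.4 and 57.7 CPM (log2 0.63, adjusted p = 0.00653). Rpsa, a ribosomal protein gene with many processed copies in the genome, was at 1235, 1238 and 1239 against 1529.6, 1697 and 1705 CPM (log2 0.41, adjusted p = 0.017). Its copy Rpsa-ps10, chosen here after its values were seen, ran the other way, at 546, 569 and 573 against 296, 319 and 2.06 CPM. The split of reads between this pair is therefore uncertain, and so is the size of the Rpsa difference. Nr6a1, a nuclear receptor of the growing trunk, was at 145, 133 and 145 against 182, 179 and 189.6 CPM (log2 0.38, SE 0.05, adjusted p = 0.0272). Chl1, a neural adhesion protein, rose from 3.84, 4.55 and 2.95 to 13.0, 8.56 and 11.0 CPM (log2 1.52, adjusted p = 0.0194). Lefty2, an inhibitor of Nodal signalling, was low throughout, at 0.308, 0.167 and 0.232 against 1.19, 1.06 and 0.983 CPM (log2 2.16, adjusted p = 0.0369). Apln, the peptide ligand of the apelin receptor, was at 14.2, 13.4 and 14.1 against 19.4, 20.1 and 20.99 CPM (log2 0.54, adjusted p = 0.0302). Tbc1d13 (log2 0.69) and the peptidase Dpp3 (log2 0.46) were the others. Apln, Lefty2, Frmd4b, Bcl11a, Arrdc4, Tecr and Acly were called in none of the 6 fits without a library.

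Calls without a name of their own were mostly large and mostly copies. Ndufa12-ps, a processed pseudogene, was at 17.4, 10.1 and 8.65 CPM in wild type and below 0.2 CPM in each mutant library, and Tdg-ps2 was at 32.5, 14.6 and 16.4 against 0, 0.0332 and 0.159 CPM. Rpl3-ps1 and Gm8116 were lower as well. Gm49083, a long noncoding RNA on chromosome 14, was at 0.196, 0.335 and 0.563 CPM in wild type and at 11.3, 5.94 and 12.3 CPM in Del(i9-13). Of the noncoding RNAs, D930028M14Rik and Gm16551 were lower and 9430037G07Rik was higher, the last from 1 count in all wild type libraries to 68 in Del(i9-13). The pseudogenes 3000002C10Rik and Mid1-ps1 were higher. Mid1-ps1 lies on chromosome Y and was at 0 CPM in wild type 1, which had Y-linked transcripts, and at 1.06 to 2.12 CPM in Del(i9-13). Reads of a pseudogene and its parent can be split by the counting, so these levels are uncertain.

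Libraries of 1 group differed from each other in what tissue they held, and in places the groups differed with them. The first principal component of the 6 libraries carried 37% of the variance and placed them in the order −28.0, −26.0 and −22.8 for wild type 1, 2 and 3 and 10.9, 25.9 and 39.9 for Del(i9-13) 1, 2 and 3. In bulk RNA, fewer cells of a type and less RNA per cell cannot be told apart.

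Visceral endoderm and liver bud genes showed the widest range. The summed level of the 17 genes was 47.4, 51.5 and 157 CPM in wild type and 152, 359 and 1537 CPM in Del(i9-13). Afp, the fetal serum protein of yolk sac and liver, was at 12.3, 16.5 and 70.7 CPM in wild type and at 62.0, 151 and 521 CPM in Del(i9-13). Apob, a lipoprotein carrier, was at 5.32, 4.49 and 8.88 against 17.1, 20.3 and 247 CPM. Amn and Apoa4, of absorptive visceral endoderm, were at or below 0.560 CPM in wild type and reached 11.3 and 39.1 CPM in Del(i9-13) 3. Alb, serum albumin of the liver, was at 3.91 CPM in wild type 3 and at 0 to 0.571 CPM in the other 5. Values were positive for 16 of 17 genes, with a median log2 of 2.97, and 0 were called. The Del(i9-13) libraries alone spanned 152 to 1537 CPM. Apoe, an LXR target and lipid carrier, followed the same order, at 16.2, 16.8 and 28.3 against 23.1, 45.5 and 112 CPM. The lowest Del(i9-13) sum lay just below the highest wild type sum. Summed levels of the 21 sterol synthesis enzymes were 2764, 2605 and 2472 CPM in wild type and 1869, 1797 and 1761 CPM in Del(i9-13). With the visceral endoderm level as a covariate 0 of the 48 sterol and fatty acid genes were called, and its part in these and the other calls was not tested further.

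Of 26 neuronal genes 1 was called, Cntn2, although their summed level differed between the groups. The list summed to 249, 246 and 211 CPM in wild type and to 177, 158 and 134 CPM in Del(i9-13), which do not overlap. Values were negative for 25 of 26, beside 49.5% of all genes, with a median log2 of −0.63. At an unadjusted p under 0.05, 17 had lower values, beside 6.31% of all genes. The Cntn2 call was lost in 5 of the 6 fits without a library. Tubb3, a neuronal tubulin, was at 37.9, 34.1 and 28.3 against 20.7, 16.3 and 11.4 CPM, and Nefm, a neurofilament, was at 13.1, 10.4 and 9.71 against 6.53, 5.81 and 4.15 CPM. Gap43 was level, at 30.6 to 32.5 against 29.8 to 32.0 CPM, and so was Neurog2, a gene of neuronal precursors, at 17.8 to 19.2 against 15.2 to 19.1 CPM. Bcl11a, called and not on this list, was lower as well. With the neuron level as a covariate its log2 was −0.85 (adjusted p = 0.925, quasi-likelihood test), and neither Bcl11a nor Cntn2 was called. The part of the neuronal level in these calls was not tested further. Spinal cord progenitor genes had 8 positive and 9 negative values and a median of −0.03.

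**Figure D4:**
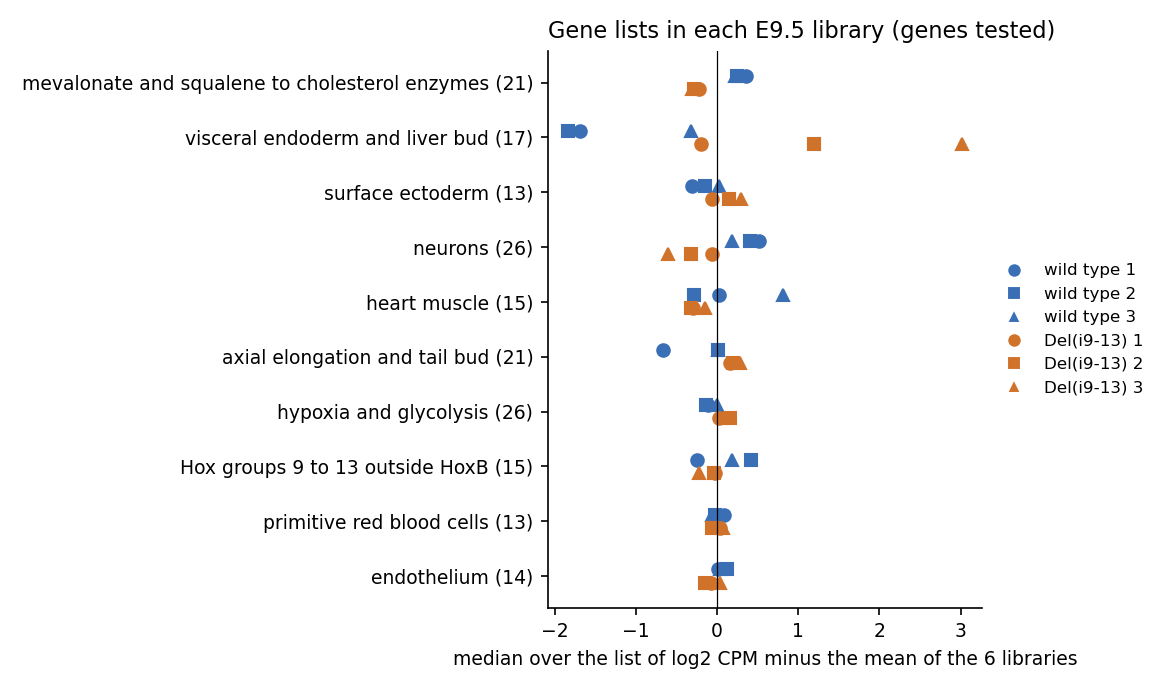
Median log2 CPM of 10 gene lists in each E9.5 library, relative to the mean of the 6 libraries, with the number of genes tested in brackets; blue points are wild type and orange Del(i9-13) libraries 1 to 3. Visceral endoderm and liver bud genes spread from −1.84 to 3.02, neuronal genes step down from wild type 1 (0.52) to Del(i9-13) 3 (−0.61), and sterol enzymes form a compact cluster per genotype.

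In other lists a single library stood apart, beside differences between the groups. Heart muscle genes summed to 104, 88.5 and 189 CPM in wild type and to 84.3, 89.4 and 80.7 CPM in Del(i9-13), so that wild type 3 stood apart. Of the 15 tested, 14 had negative values, beside 49.5% of all genes, with a median log2 of −0.74, and 0 were called. Myh6, chosen here after its values were seen, was at 13.1 CPM in wild type 3 and below 0.5 CPM elsewhere, whereas Ttn, the giant muscle protein, was lower in all mutant libraries, at 7.23, 6.46 and 8.02 against 2.99, 0.996 and 1.87 CPM. Tail bud and axial elongation genes were low in wild type 1, with a list median of −0.67 against 0.01 and 0.01 in wild type 2 and 3 and 0.16 to 0.29 in Del(i9-13). The list medians of wild type 2 and 3 thus also lay below those of Del(i9-13). T (Brachyury), also chosen after its values were seen, was at 10.6 CPM in wild type 1 and at 35.3 to 53.6 CPM in the other 5 libraries. Of the 21 genes, 20 had positive values, with a median log2 of 0.38, and 0 were called. Sall4 was at 113, 129 and 105 against 156, 133 and 160.1 CPM, and Cdx1 at 11.9, 11.3 and 13.8 against 15.8, 17.0 and 17.6 CPM. Gdf11, a signal for the switch from trunk to tail, was the single negative member, at 63.2, 70.0 and 70.6 against 59.1, 52.4 and 54.3 CPM.

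Hypoxia and glycolysis genes had small positive values in 24 of 26, beside 50.5% of all genes, with a median log2 of 0.19, and 0 were called. Ldha, lactate dehydrogenase, was at 2189.8, 2241 and 2435 CPM in wild type and at 2556, 2876 and 2473 CPM in Del(i9-13). Pdk1, a brake on pyruvate oxidation, was at 99.8, 98.2 and 120.3 against 127, 148 and 137 CPM. Both ranges were separate but close. Surface ectoderm genes had a median log2 of 0.36, and their keratins followed the order of the visceral endoderm genes within Del(i9-13), with Krt8 at 141, 205 and 301 CPM and at 126 to 145 CPM in wild type. Cell cycle genes (16, median 0.01), primitive red cells (13, median −0.03), endothelium (14, median −0.12) and the stress response (13, median −0.12) held 0 calls.

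A separate source of spread within groups was in single genes. Over 9674 genes with a mean of at least 10 CPM the median within-group SD of log2 CPM was 0.086. The 10 genes with the largest spread were Xist, the Y-linked Kdm5d, Ddx3y and Uty, and 6 copies or predicted genes. Rps3a3 was at 295 CPM in wild type 3 and below 1 CPM in the other 5. Gm15459 was near 0 in wild type 3 (3.55 CPM) and Del(i9-13) 3 (2.85 CPM) and at 228 to 247 CPM in the others. Gm15772 took 3 levels, 1.23 CPM in wild type 1, 143 and 157 CPM in Del(i9-13) 3 and 1, and 294 to 327 CPM in the remaining 3 libraries. Rpl15-ps6 was near 0 in the same libraries as Gm15459, at 23.0, 51.9 and 0.133 CPM in wild type and at 27.3, 27.0 and 0.0317 CPM in Del(i9-13), with Rpl15-ps2 in step. Gm14513 was at 54.6, 0.0669 and 60.5 against 30.4, 0 and 26.9 CPM. These levels did not follow genotype. Gm15459, Rpl15-ps6, Rpl15-ps2 and Gm14513 were near 0 in same-numbered libraries of both groups. The globin gene Hba-a2 was at 106 CPM in wild type 3 and at 0.332 to 1.88 CPM elsewhere, and Hba-a1, its near-identical copy, was at 226 CPM in wild type 3 and at 335 to 354 CPM elsewhere, so the split of reads between the pair is uncertain.

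At E10.5 the E9.5 calls were traced in libraries with no sample in common. Of the 58 calls 56 were tested there, and 42 of them (75%) kept their sign in Del(i9-13) against wild type, beside 59.2% of all 15580 genes tested at both stages. Hoxb13, Gm53, Hoxb9, Chl1 and Scd1 were called again with the same sign, in a comparison that called 84 of 17202 genes (0.488%). The median absolute log2 of the 56 was 0.68 at E9.5 and 0.15 at E10.5. Scd1 stood at log2 −0.37 (adjusted p = 0.0083) and Chl1 at 0.90 (adjusted p = 0.0119). In Del(i9-13):Hoxb13hd against Hoxb13hd, 25 of 56 (44.6%) kept their sign, beside 44.0% of all genes. That comparison called 165 genes (0.959%), among them Hoxb13, Gm53, Hoxb9 and 3000002C10Rik with the E9.5 sign and Bcl11a (log2 1.52) and Nr6a1 (log2 −0.87) with the opposite sign.

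At E10.5 few of the sterol and fatty acid genes passed the test. In Del(i9-13) against wild type, 40 of 48 were negative with a median log2 of −0.11, beside 49.6% of all genes, and 2 were called lower, Scd1 among them. Of the 22 called at E9.5, 21 were negative, with values from −0.37 to 0.06. With Hoxb13hd in both arms, 20 of 48 were negative, the median was 0.03 and 0 were called. Neuronal genes had medians of −0.63 at E9.5, 0.02 in Del(i9-13) at E10.5 and 0.68 with Hoxb13hd. Visceral endoderm and liver bud genes had medians of 2.97, 1.44 and 1.67. A direct test of the difference between the stages, in 1 fit of the 12 wild type and Del(i9-13) libraries, called 8 of 17670 genes (0.0453%), 3 of them E9.5 calls: Insig1, Rhbdl3 and Gm16551. In 9 of the 12 fits without a library, 0 E9.5 calls passed this test.

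**Figure D5:**
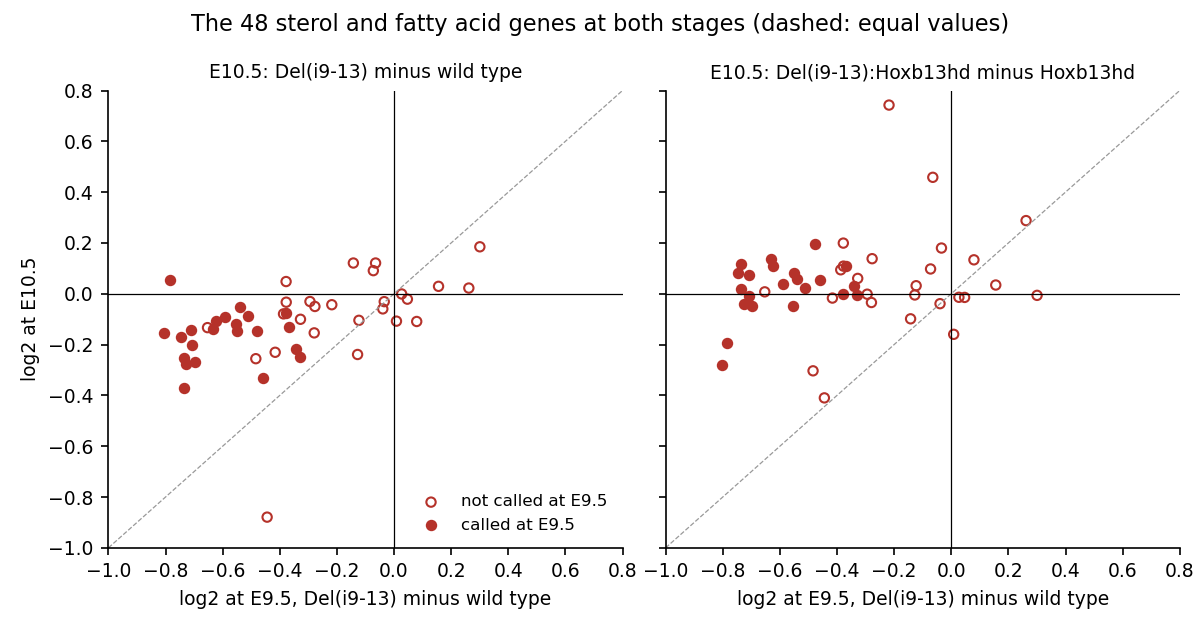
Log2 differences of the 48 sterol and fatty acid genes at E9.5 (horizontal) and E10.5 (vertical), for Del(i9-13) against wild type on the left and Del(i9-13):Hoxb13hd against Hoxb13hd on the right; filled points were called at E9.5 and the dashed line marks equal values. On the left 40 of 48 lie below 0 and the called genes lie between the dashed line and 0.06, and on the right the points scatter around 0, with 20 below it.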

How the data were processed

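Del(i9-13) and wild type E9.5 headless embryos were compared in 6 poly(A) libraries. Raw read counts of 55141 genes came from the table the authors deposited, and FPKM (fragments scaled to transcript length and depth) of 55138 genes from the authors' second table. The submitters' processing notes name cutadapt 1.18, STAR 2.7.10a, Cufflinks 2.2.1 and mm10. How the counting treated strand, and its annotation, is not given in the sources used. Groups came from the sample titles, and 0 columns were left unassigned.

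Counts were fitted in R 4.3.3 with edgeR 4.0.16: filterByExpr (minimum count 10, minimum total 15), TMM scaling and a robust quasi-likelihood test on the 6 libraries. Genes were called at an adjusted p of 0.05 (Benjamini-Hochberg over all genes tested). CPM used TMM-scaled totals. E10.5 was fitted on its 12 libraries. DESeq2 1.42.0 and limma 3.58.1 (log2 FPKM) served as alternatives, with other scalings, filters, covariates and left-out libraries. The fit was also run on simulated counts with the same spread for every gene, below the biological coefficient of variation of 0.144 estimated here. That run does not show how the fit behaves on the spread of these libraries. Replicates differed beyond sampling noise (chi-square per degree of freedom 10.4 to 32.6), so spread, not depth, limited well-expressed genes. Intervals cover counting error only.

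The comparison, the gene lists and the covariates were chosen with earlier results of these data known. Values per library were given for Hoxb13, the HoxB genes and Gm53, for up to 20 calls each way with the smallest p and at least 1 CPM, for the sterol and fatty acid lists, for leading members of other lists and for the 10 genes of largest spread. Genes outside this rule are marked in the text. Some genes within it are counted in the totals but not reported here. Replicate numbers were not taken to pair the libraries.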

Additional observations from a re-analysis of the deposited data

Results flagged for a closer look

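For 3 of the E9.5 calls the effect of Del(i9-13) differed between the stages, in a test of the difference itself (edgeR's quasi-likelihood test over the 12 wild type and Del(i9-13) libraries). The E9.5 effect minus the E10.5 effect was −0.96 for Rhbdl3 (adjusted p = 0.0295), −0.86 for Insig1 (adjusted p = 0.0479) and −1.52 for Gm16551 (adjusted p = 0.0338), all on the log2 scale. Library type changed with stage, so the effects of stage and library type cannot be told apart. The count of such E9.5 calls was 0 in 9 of the 12 fits without a library.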

How the results depend on the processing

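Against 58 calls (15 higher, 43 lower, 22 of them sterol and fatty acid genes), no filter gave 537 (219 and 318) and DESeq2 gave 334 (132 and 202), each holding all 58. limma on log2 FPKM without a filter gave 20 (4, 16 and 8 sterol and fatty acid genes), and a minimum absolute log2 difference of 1 kept 18 (7, 11 and 0). The 4 libraries with Y-linked counts, of which 1 is wild type and was assumed to vary like the others, gave 92 calls (48 higher) with 13 sterol and fatty acid genes. Xist as a covariate gave 23 higher calls and 14 sterol and fatty acid genes. The visceral endoderm and the neuron covariates each gave 1 call (1 higher, 0 lower, 0 sterol and fatty acid genes), and the heart covariate 35 (8, 27 and 10). Leaving out a library gave 40 to 53 calls, 10 to 18 higher, 30 to 40 lower and 13 to 18 sterol and fatty acid genes. The 13 were found without wild type replicate 1 or 2 or Del(i9-13) replicate 1. No called gene changed sign under any alternative. The value of Hoxb7, which was not called, turned to 0.032 with the neuron covariate. Hoxb13 differed by 5.29 with a pseudocount of 1 CPM. With DESeq2's E9.5 calls, 211 and 101 kept their sign in the E10.5 comparisons of Del(i9-13) and of Del(i9-13):Hoxb13hd. The stage difference, 3 E9.5 calls, became 1 with RLE scaling and 0 to 6 without a library. The causes were not tested.

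The replicate numbers were not taken to pair the libraries, since the litter of each library is not given. Deviations of log2 CPM from the group mean correlated at 0.0915, -0.000292 and 0.145 between same-numbered libraries across genotypes. Between differently numbered libraries they correlated at -0.219 to 0.136. Single genes such as Gm15459 and Gm14513 were near 0 in same-numbered libraries of both groups. Whether same-numbered libraries share a litter or batch was not tested. A fit with the replicate block called 79 genes, 26 higher, of which 45 were among the 58, and 17 sterol and fatty acid genes.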
